A study of Homo sapiens with 6 samples.

Results

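The 9 genes described here encode enzymes that make, use or pass on glutamine and glutamate: the glutaminase GLS2, the glutamate dehydrogenase GLUD1, the glutamine synthetase GLUL, the aspartate transaminases GOT1 and GOT2, the alanine transaminases GPT and GPT2, the asparagine synthetase ASNS and the argininosuccinate synthetase ASS1. They were chosen by symbol for these roles, with earlier results of these data known. Each symbol matched 1 row, and they are 9 of the 60664 genes in the table. RNA-seq was performed on 67R cells, which are NCI-H1975 lung adenocarcinoma cells with acquired resistance to the EGFR inhibitor ASK120067. Cells of both groups carried this resistance, and they received either a control siRNA (siNC, 3 libraries) or an siRNA against BCAT1 (siBCAT1, 3 libraries), the branched-chain amino acid transaminase of the cytosol. The methods name a pair of BCAT1 siRNAs and give the plain name siBCAT1, which the labels carry, to the second of them, siBCAT1-2. The time after transfection was not given in the sources used here. A general statement on repeated experiments in the methods does not name the RNA-seq libraries, and the labels do not say whether those of a group came from separate cultures, so p-values measure only the spread between these libraries, which may be technical.

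Transaminases move an amino group between an amino acid and a keto acid, most often with glutamate and α-ketoglutarate as one of the pairs. BCAT1 exchanges amino groups between glutamate and leucine, isoleucine or valine, and its reaction is reversible. The paper proposes that BCAT1 in the resistant cells might speed the making of these branched-chain amino acids more than their breakdown. Making them uses glutamate and yields α-ketoglutarate. The GOT enzymes exchange amino groups between glutamate and aspartate, and the GPT enzymes exchange them between glutamate and alanine. Glutaminases and glutamate dehydrogenase lead from glutamine through glutamate to α-ketoglutarate, glutamine synthetase runs the other way, and ASNS and ASS1 both consume aspartate, for asparagine and for the arginine and urea pathway.

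Values were read as TPM, a unit that corrects each gene for its length and each library for its total, so levels of different genes can be set side by side. TPM keeps no read depth, and the precision of each value rests on the 3 libraries of its group. Values with ± are the mean and the SD over these libraries (n = 3). The libraries summed to between 992512 and 995593 TPM and held between 23152 and 25043 genes above 0. The siRNA target BCAT1 (ENSG00000060982) had 29.8 to 42.7 TPM in the siNC and 7.10 to 8.78 TPM in the siBCAT1 libraries, so the labels and the target went together. Of 9 epithelial markers, 7 reached 1 TPM in both groups, while the lung adenocarcinoma markers NKX2-1 and NAPSA were at most 0.1 and 0.33 TPM. The summed level of the 9 epithelial markers was 2560 to 2970 TPM in siNC and 1660 to 1950 TPM in siBCAT1 libraries, and its part in the results was not tested. Of 8 markers of immune, endothelial and stromal cells, 4 reached 1 TPM (CD68, COL1A1, COL1A2 and ACTA2), PTPRC, PECAM1, VWF and DCN were at most 0.33, 0.04, 0.04 and 0 TPM, and the summed level was 427 to 480 TPM in siNC and 388 to 510 TPM in siBCAT1 libraries.

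Of the 9 enzyme genes, GPT2 and ASNS rose and ASS1 fell in siBCAT1 cells, while GOT1, GOT2, GLUD1 and GLUL did not pass the test and GLS2 and GPT were too low to be tested. The test covered the 14286 genes that averaged 1 TPM or more, on log2(TPM + 1) with limma and Benjamini-Hochberg adjustment over all of them, and a gene was called at an adjusted p under 0.05. This scale understates the change of weakly expressed genes. Calls were made for 3 of the 7 tested members, and for 27.1% of all genes tested. The members were chosen with earlier results of these data known, so their count is no independent result. Of the 7, 2 were called higher (16.7% of all genes) and 1 lower (10.4% of all genes), and the siNC and siBCAT1 libraries did not overlap for 3 (44.1% of all genes). The excess of higher over lower calls among all genes (2382 and 1483) depends on the scaling, with 1957 and 1802 under median-ratio scaling, 2042 and 1865 under quantile normalization and 2133 and 1904 under the GC content and length correction, while the same 3 members were called in the same directions under each of these. The median log2 fold change was 0.10 over the 7 members and 0.04 over all genes tested, and no member reached a log2 fold change of 1 in either direction. In bulk RNA, fewer cells expressing a gene and less RNA per cell cannot be told apart.

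**Figure D1:**
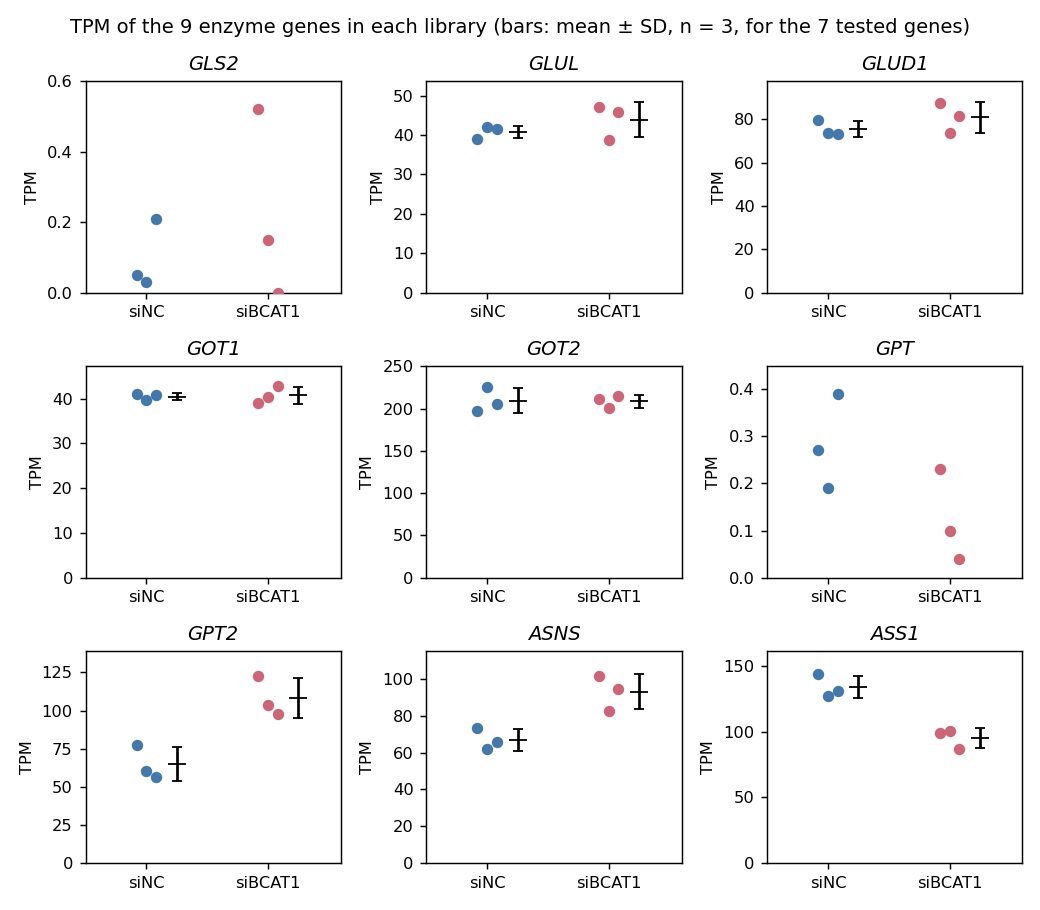
TPM of the 9 enzyme genes in each library, on linear axes that start at 0 and differ between panels. Points are siNC (blue) and siBCAT1 (red) replicates 1, 2 and 3 from left to right, and bars are the mean ± SD (n = 3) for the 7 tested genes. The groups are apart for GPT2, ASNS and ASS1 and overlap for GOT1, GOT2, GLUD1 and GLUL, and GLS2 and GPT stay under 1 TPM.

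GLS2 (ENSG00000135423, GRCh38 chromosome 12, 56470944 to 56488414, minus strand), the liver-type glutaminase that releases glutamate from glutamine, was at 0.05, 0.03 and 0.21 TPM in siNC replicates 1 to 3 and at 0.52, 0.15 and 0 TPM in siBCAT1 replicates 1 to 3. The groups overlapped and the gene stayed under the filter in every library.

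GLUL (ENSG00000135821, chromosome 1, 182381704 to 182392206, minus strand) makes glutamine from glutamate and ammonia. Its level was 39.1, 41.9 and 41.6 TPM in siNC replicates 1 to 3 and 47.0, 38.9 and 45.9 TPM in siBCAT1 replicates 1 to 3. The second siBCAT1 library was below every siNC library and the other two were above them. The mean was 40.9 ± 1.56 TPM in siNC cells and 43.9 ± 4.42 TPM in siBCAT1 cells, and the 95% interval of the fold change ran from 0.926 to 1.24 (adjusted p = 0.453).

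GLUD1 (ENSG00000148672, chromosome 10, 87050486 to 87094866, minus strand) is the mitochondrial enzyme that converts glutamate to α-ketoglutarate and ammonia. It was measured at 79.7, 73.7 and 73.3 TPM in siNC replicates 1 to 3 and at 87.6, 73.6 and 81.7 TPM in siBCAT1 replicates 1 to 3, and the groups overlapped through the second siBCAT1 library. Mean levels were 75.6 ± 3.60 TPM and 81.0 ± 7.06 TPM, with a 95% interval of the fold change from 0.938 to 1.22 (adjusted p = 0.415). Its retrocopy GLUD2 was listed at 0 in every library, and its pseudogene GLUD1P3 reached between 0.52 and 1.79 TPM. How the authors' counting divided reads between near-identical copies was not given in the sources used here.

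Of the aspartate transaminases, neither passed the test. GOT2 (ENSG00000125166, chromosome 16, 58707131 to 58734357, minus strand), the mitochondrial form, was at 197, 226 and 205 TPM in siNC replicates 1 to 3 and at 212, 200 and 214 TPM in siBCAT1 replicates 1 to 3. All siBCAT1 libraries lay within the siNC range. Its mean was 209 ± 14.8 TPM in siNC cells and 209 ± 7.57 TPM in siBCAT1 cells, with a 95% interval of the fold change from 0.898 to 1.11 (adjusted p = 0.983).

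GOT1 (ENSG00000120053, chromosome 10, 99396870 to 99431569, minus strand), the cytosolic form, was at 40.9, 39.7 and 40.8 TPM in siNC replicates 1 to 3 and at 39.1, 40.3 and 42.8 TPM in siBCAT1 replicates 1 to 3. The siBCAT1 libraries spread on both sides of the siNC libraries, whose SD on the log2 scale was 0.024, a spread that was smaller in 3.1% of the tested genes. Mean levels were 40.5 ± 0.676 TPM and 40.7 ± 1.88 TPM, with a 95% interval of the fold change from 0.902 to 1.12 (adjusted p = 0.949). GOT2 supplied 82.8, 85.0 and 83.4% of the summed TPM of both forms in siNC replicates 1 to 3 and 84.4, 83.2 and 83.4% in siBCAT1 replicates 1 to 3, so the mitochondrial form made up most of the transcripts in either group.

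GPT2 (ENSG00000166123, chromosome 16, 46884378 to 46931297, plus strand), the mitochondrial alanine transaminase, rose more than any other of the 7 tested members. It was at 77.4, 60.6 and 56.1 TPM in siNC replicates 1 to 3 and at 123, 103 and 98.0 TPM in siBCAT1 replicates 1 to 3. Every siBCAT1 library was above every siNC library, and the first replicate was the highest of its group in both. The mean rose from 64.7 ± 11.2 TPM to 108 ± 13.1 TPM, which is 1.67 times the siNC mean. The log2 fold change was 0.74 (standard error 0.135, 95% interval 0.42 to 1.06, adjusted p = 0.00786). This placed it at percentile 94.8 of the log2 fold changes of all tested genes, and at rank 749 among them from the largest rise down.

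GPT (ENSG00000167701), the cytosolic alanine transaminase known from liver, was at 0.27, 0.19 and 0.39 TPM in siNC replicates 1 to 3 and at 0.23, 0.10 and 0.04 TPM in siBCAT1 replicates 1 to 3. The groups overlapped and the gene was not tested. GPT2 made up at least 99.3% of the summed TPM of the 2 alanine transaminases in every library. A gene on the opposite strand, AC084125.2, overlaps GPT over 2472 bases and was at 0.83 to 1.54 TPM, above GPT itself. The library kit keeps strand, but whether the counting used it was not given in the sources used here.

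ASNS (ENSG00000070669, chromosome 7, 97852118 to 97872542, minus strand) makes asparagine from aspartate with the amide group of glutamine. It was at 73.2, 61.9 and 65.7 TPM in siNC replicates 1 to 3 and at 102, 82.9 and 94.7 TPM in siBCAT1 replicates 1 to 3, with no overlap between the groups. Its mean rose from 67.0 ± 5.77 TPM to 93.1 ± 9.56 TPM, which is 39.1% higher. The log2 fold change was 0.47 (standard error 0.097, 95% interval 0.24 to 0.70, adjusted p = 0.0126). Without siNC replicate 3, siBCAT1 replicate 1 or siBCAT1 replicate 3 the log2 fold change was 0.46, 0.40 and 0.46, and the adjusted p of 0.0527, 0.0506 and 0.0522 missed the threshold. The unnamed gene AC079781.5 overlaps the whole of ASNS on the same strand and averaged 24.1 ± 1.19 and 24.9 ± 2.30 TPM in siNC and siBCAT1 cells. The sum of both rows was 96.0, 87.1 and 90.0 TPM in siNC replicates 1 to 3 and 128, 105 and 121 TPM in siBCAT1 replicates 1 to 3, which did not overlap and had a ratio of means of 1.30.

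ASS1 (ENSG00000130707, chromosome 9, 130444929 to 130501274, plus strand), which joins citrulline and aspartate on the way to arginine, was the member that fell. It was at 144, 127 and 131 TPM in siNC replicates 1 to 3 and at 98.7, 100 and 86.6 TPM in siBCAT1 replicates 1 to 3, and every siBCAT1 library was below every siNC library. Its mean was 134 ± 8.47 TPM in siNC cells and 95.2 ± 7.55 TPM in siBCAT1 cells, and the log2 fold change was -0.49 (standard error 0.079, 95% interval -0.68 to -0.30, adjusted p = 0.00485). ASL, which acts next and splits argininosuccinate into arginine and fumarate, was at 46.5 and 47.3 TPM (log2 fold change 0.02, adjusted p = 0.84). ASS1 has 14 pseudogene rows in the table, of which 5 were above 0 in some library and none exceeded 0.47 TPM.

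**Figure D2:**
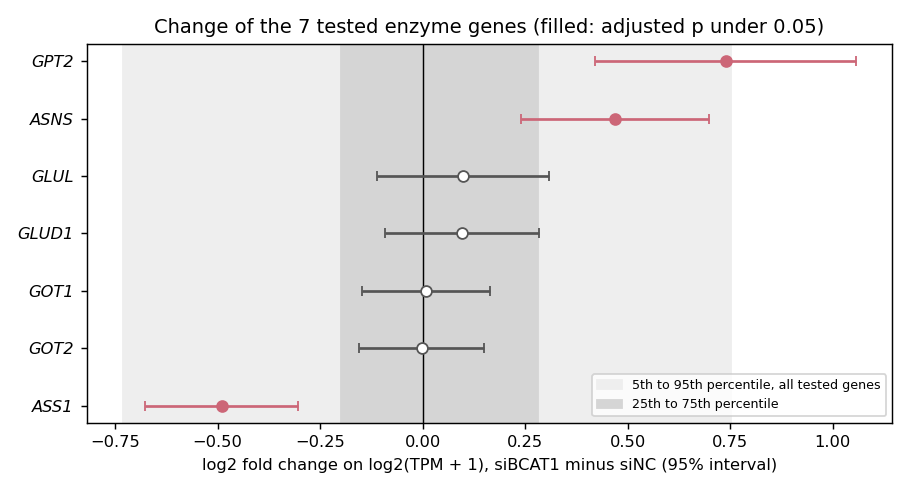
Log2 fold change of the 7 tested members on log2(TPM + 1), siBCAT1 minus siNC, as points with 95% intervals from limma, with grey bands for the 5th to 95th and the 25th to 75th percentile of all tested genes. The intervals of GPT2 (0.42 to 1.06) and ASNS (0.24 to 0.70) lie above 0, that of ASS1 (-0.68 to -0.30) lies below 0, and those of the other 4 members include 0.

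The promoter windows of the members were searched for a pair of motifs: TGATGNAAN, a core of the element bound by ATF4 and its C/EBP partners under amino acid shortage, and the E-box CACGTG, which MYC, HIF and USF family proteins can bind. The first was searched on both strands, the second reads the same on either strand, and no match of one overlapped the other. RefSeq windows (GRCh38.p14, 250 bases before to 50 after each start) were held for 7 of the 9 members, GPT and GPT2 not among them. TGATGNAAN was present in 3.61% of the 35116 windows and in 4.45% of the 27305 genes, and CACGTG in 7.26% and 8.77%. Among the members, which held 10 windows, ASNS and GOT1 had a match to TGATGNAAN and ASS1 one to CACGTG. These are shown because ASNS rose, GOT1 did not pass the test and ASS1 fell. Each run is 30 bases on the strand of the gene with the matching bases in capitals.
ASNS, chr7:97872457-97872486, minus strand: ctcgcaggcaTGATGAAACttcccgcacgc
GOT1, chr10:99430804-99430833, minus strand: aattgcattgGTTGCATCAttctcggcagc
ASS1, chr9:130444878-130444907, plus strand: gcgcgtccccgcCACGTGtccccggtcacc

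The ASNS match lies at positions -68 to -60 from the RefSeq start and reads in the direction of the gene, and the GOT1 match lies at -199 to -191 and reads on the opposite strand as TGATGCAAC. The ASS1 match lies at -71 to -66 from the second of its 2 RefSeq starts. In GENCODE 29 the ASNS run lies within an exon of 1 ASNS transcript and partly within exons of 3 others, the GOT1 run within an exon of 1 GOT1 transcript, and the ASS1 run outside every annotated transcript. A match is a description of the sequence and no measure of binding, which was not assayed in these libraries.

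The order of the levels differed between the groups. In siNC cells GOT2 was the highest at 209 TPM, followed by ASS1 at 134, GLUD1 at 75.6, ASNS at 67.0, GPT2 at 64.7, GLUL at 40.9 and GOT1 at 40.5 TPM, with GPT at 0.283 and GLS2 at 0.0967 TPM last. The libraries of ASNS and GPT2, of GLUL and GOT1, and of GPT and GLS2 overlapped, so these neighbours were not told apart. GPT2 also overlapped GLUD1, with 77.4 TPM in siNC replicate 1 beside 73.7 and 73.3 TPM for GLUD1 in siNC replicates 2 and 3. In siBCAT1 cells GPT2 moved to second place at 108 TPM, next to ASS1 at 95.2, ASNS at 93.1 and GLUD1 at 81.0 TPM. The libraries of neighbours among these 4 genes overlapped, while GOT2 stayed above all of them. The summed TPM of the 9 genes was 632.2 ± 18.7 in siNC and 671.1 ± 35.3 in siBCAT1 cells, and the groups overlapped.

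Ratios of 2 members within a library depend little on the scaling between libraries, and 4 pairs with related roles were compared, with a pseudocount of 1 TPM and exact permutation tests whose smallest two-sided p is 0.1. The log2 ratio of ASNS to ASS1 was -0.96, -1.03 and -0.99 in siNC replicates 1 to 3 and 0.05, -0.27 and 0.13 in siBCAT1 replicates 1 to 3. ASS1 exceeded ASNS in every siNC library and the genes were near each other in the siBCAT1 libraries. The mean difference was 0.96 (siNC -0.99 ± 0.034, siBCAT1 -0.03 ± 0.212, exact permutation p = 0.1, adjusted p = 0.2 over 4 pairs). These ratios leave out AC079781.5, the gene that overlaps ASNS. With its TPM added, ASNS was below ASS1 in every siNC library and above ASS1 in every siBCAT1 library.

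The log2 ratio of GPT2 to GPT rose from 5.67 ± 0.294 to 6.60 ± 0.048 (exact permutation p = 0.1, adjusted p = 0.2) without overlap, and with GPT this low its size depends on the pseudocount, the difference being 0.93 with 1 TPM and 1.58 with 0.1 TPM. GOT1 to GOT2 was -2.34 ± 0.123 in siNC and -2.33 ± 0.067 in siBCAT1 libraries (exact permutation p = 0.8). GLUL to GLUD1 was -0.87 ± 0.121 in siNC and -0.87 ± 0.045 in siBCAT1 libraries (exact permutation p = 1.0). The last 2 ratios overlapped between the groups, with differences of 0.01 and 0.003.

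**Figure D3:**
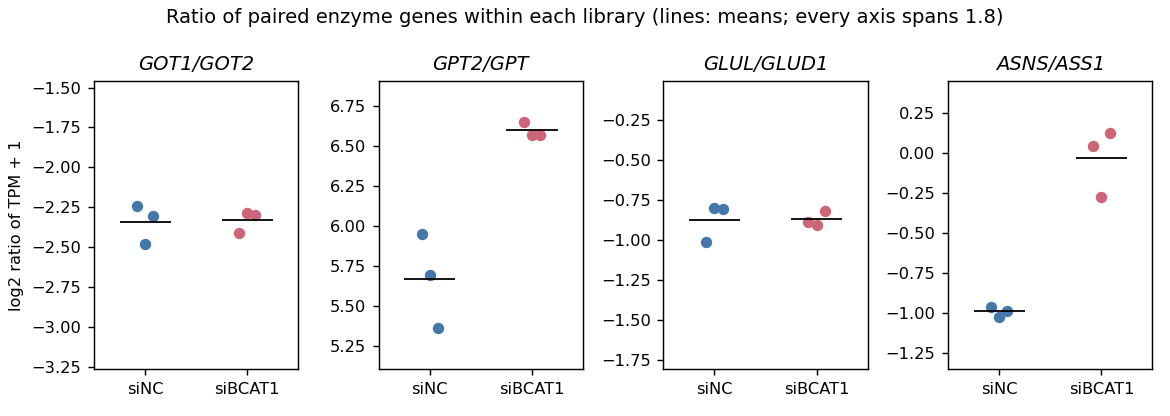
Log2 ratio of 2 members within each library, (TPM + 1) of the first over (TPM + 1) of the second, for 4 pairs. Points are libraries, lines are means, and each panel has its own log2 axis of equal span. ASNS to ASS1 and GPT2 to GPT are higher in all siBCAT1 libraries, and GOT1 to GOT2 and GLUL to GLUD1 overlap.

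To set the GOT and GPT enzymes beside the targeted transaminase, the TPM of 15 transaminase genes was summed, a list chosen after the values were seen. The sum was 726.4, 737.3 and 680.0 TPM in siNC replicates 1 to 3 and 837.2, 787.8 and 795.7 TPM in siBCAT1 replicates 1 to 3. It was higher in every siBCAT1 library, with a difference of 92.3 TPM (714.6 ± 30.4 against 806.9 ± 26.5, exact permutation p = 0.1, the smallest possible). The mean level of BCAT1 fell by 30.3 TPM, GPT2 gained 43.4 TPM and PSAT1, the phosphoserine transaminase of serine synthesis, gained 82.5 TPM. GPT2 supplied 10.6, 8.21 and 8.25% of the sum in siNC replicates 1 to 3 and 14.7, 13.1 and 12.3% in siBCAT1 replicates 1 to 3. GOT2 held the largest share in every siNC library, at 27.1 to 30.6%, and PSAT1 the largest in every siBCAT1 library, at 28.4 to 28.9%. BCAT2, the mitochondrial counterpart of BCAT1, was at 79.5 and 72.8 TPM in siNC and siBCAT1 cells (log2 fold change -0.13, adjusted p = 0.175).

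**Figure D4:**
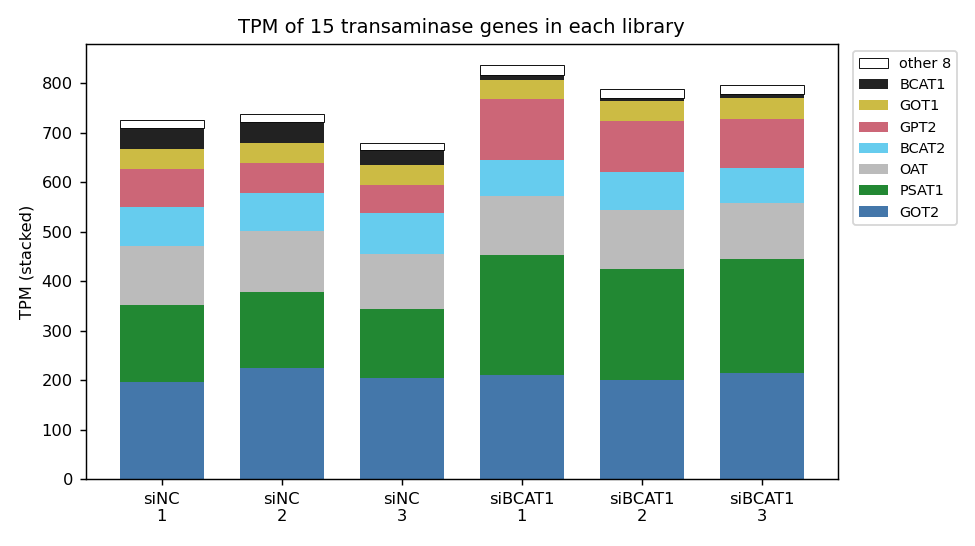
TPM of 15 transaminase genes stacked in each of the 6 libraries, on a linear axis from 0, with 7 genes in colour and the other 8 together in white. The siBCAT1 bars reach 787.8 to 837.2 TPM and the siNC bars 680.0 to 737.3 TPM, with larger GPT2 and PSAT1 segments and a smaller BCAT1 segment in siBCAT1.

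Around the members, 63 genes of 6 lists were examined, of which 50 were tested. Of these, 15 rose and 5 fell, 40.0% called beside 27.1% of all genes, with a median log2 fold change of 0.17 beside 0.04. The lists were chosen with earlier results of these data known, so the higher share is no independent result. With a filter at a mean of 5 TPM, 3575 of 10456 genes were called, a higher share than in the main test, and 21 list genes. The split depends on the scaling: 12 rose and 6 fell under median-ratio scaling, 12 and 8 under quantile normalization, and 13 and 8 under the GC content and length correction.

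Of 11 enzymes that use glutamine, all tested, 1 rose, 2 fell and 8 did not pass the test, with a median log2 fold change of 0.04. The share called was 27.3%, near the 27.1% of all genes. The genes that fell were GFPT2 (61.0 ± 12.1 to 18.3 ± 2.55 TPM, log2 fold change -1.67, adjusted p = 0.000788) and GFPT1 (20.5 ± 2.11 to 10.4 ± 0.423 TPM, log2 fold change -0.91, adjusted p = 0.00112). Both encode the amidotransferase that opens the hexosamine pathway with glutamine as nitrogen donor. CAD, the first enzyme of pyrimidine synthesis, rose by 0.24 on the log2 scale (adjusted p = 0.035). That call was lost on leaving out any 1 library except siNC replicate 2 (adjusted p 0.0609 to 0.0944).

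Of 13 other transaminases and glutamate-linked dehydrogenases, 8 were tested, and 4 rose, none fell and 4 did not pass the test (median log2 fold change 0.33). PSAT1 rose from 149 ± 8.98 to 231 ± 8.58 TPM (log2 fold change 0.63, adjusted p = 0.000809). KYAT1, a kynurenine and glutamine transaminase, rose from 1.08 ± 0.397 to 3.49 ± 1.37 TPM (log2 fold change 1.08, adjusted p = 0.0298), a call lost on leaving out any 1 library except siBCAT1 replicate 2 (adjusted p 0.0512 to 0.102). The other two were ALDH4A1 and ALDH18A1, which act in the proline and glutamate pathway, with log2 fold changes of 0.53 and 0.26 (adjusted p = 0.00603 and 0.0385). The call of ALDH18A1 was lost on leaving out any 1 library except siNC replicate 2 (adjusted p 0.059 to 0.115).

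Of 8 genes of the malate-aspartate shuttle and the mitochondrial glutamate and aspartate carriers, 7 were tested. Of these, 2 rose, 1 fell and 4 did not pass the test, 42.9% called beside 27.1% of all genes (median log2 fold change 0.18). UCP2, a carrier of the inner mitochondrial membrane, rose from 61.5 ± 1.02 to 98.4 ± 7.65 TPM (log2 fold change 0.67, adjusted p = 0.00106). SLC25A11, the malate and α-ketoglutarate carrier that works with the GOT enzymes in the shuttle, rose by 0.42 on the log2 scale (adjusted p = 0.00636). MDH1, the cytosolic malate dehydrogenase, fell from 131 ± 2.50 to 103 ± 4.94 TPM (log2 fold change -0.34, adjusted p = 0.00595). GOT1 and GOT2, the transaminases of the same shuttle, are described above.

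Of 11 enzymes of asparagine, aspartate and arginine, 9 were tested, and 2 rose, none fell and 7 did not pass the test. The share called was 22.2%, under the 27.1% of all genes (median log2 fold change 0.04). NARS1, the tRNA synthetase that loads asparagine and makes no amino acid itself, rose from 109 ± 10.7 to 146 ± 6.68 TPM (log2 fold change 0.41, adjusted p = 0.0108).

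Of 11 transporters of glutamine, glutamate and aspartate in the cell membrane, 6 were tested, and 1 rose, 2 fell and 3 did not pass the test (median log2 fold change 0.02). SLC1A5, a glutamine importer, rose from 153 ± 2.99 to 212 ± 17.0 TPM (log2 fold change 0.46, adjusted p = 0.00317). SLC38A2, a sodium-coupled importer of glutamine and other neutral amino acids, fell from 90.1 ± 3.57 to 69.2 ± 4.19 TPM (log2 fold change -0.38, adjusted p = 0.00774). SLC7A5, which exchanges glutamine for leucine and other large amino acids, fell from 313 ± 7.21 to 226 ± 11.1 TPM (log2 fold change -0.47, adjusted p = 0.00129).

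All 9 regulators of the amino acid response were tested, and 5 rose, none fell and 4 did not pass the test. This was 55.6% called beside 27.1% of all genes (median log2 fold change 0.51). The largest rises were those of DDIT3 (11.8 ± 1.02 to 24.3 ± 2.58 TPM, log2 fold change 0.98, adjusted p = 0.00119), a stress-induced transcription factor, and PPP1R15A (28.1 ± 3.93 to 48.2 ± 3.90 TPM, log2 fold change 0.76, adjusted p = 0.00357), a phosphatase subunit that acts on eIF2α. CEBPG and TRIB3 rose by 0.59 and 0.60 on the log2 scale (adjusted p = 0.00342 and 0.00694). ATF4 rose by 0.26 (adjusted p = 0.0451), and that call was lost on leaving out any 1 library except siBCAT1 replicate 2 (adjusted p 0.08 to 0.136). It was also lost with no filter, median-ratio scaling, quantile normalization and the GC content and length correction (adjusted p up to 0.125). A link between ATF4 and the rise of ASNS was not tested.

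**Figure D5:**
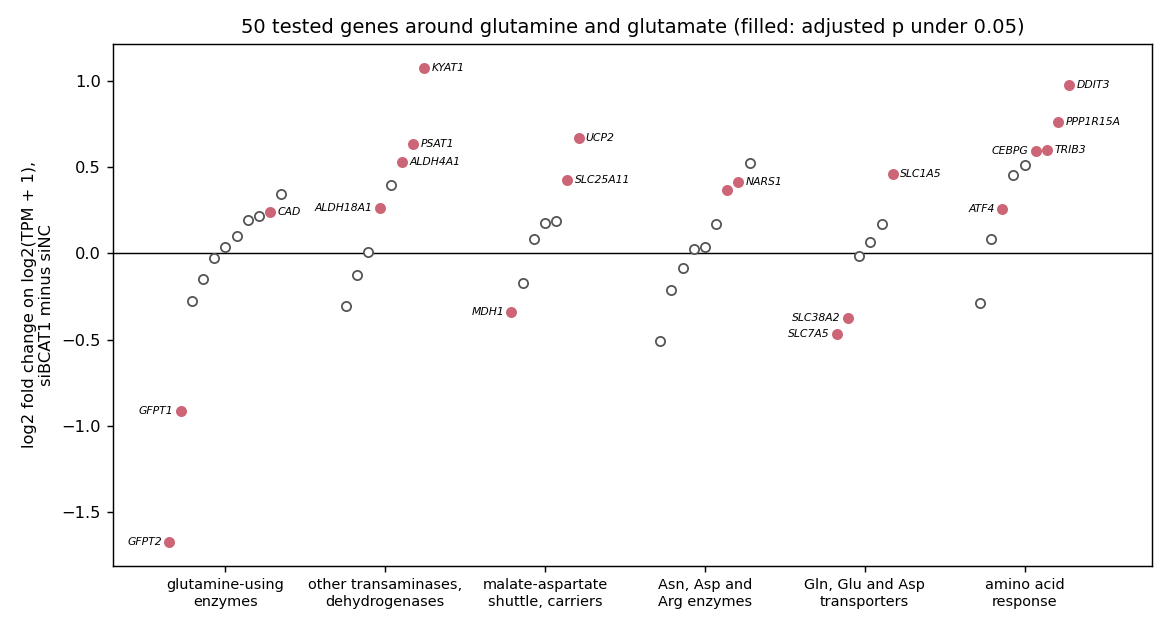
Log2 fold change on log2(TPM + 1), siBCAT1 minus siNC, of the 50 tested genes of 6 lists, sorted within each list. Filled points passed the test (adjusted p under 0.05) and open points did not. GFPT2 (-1.67) is the lowest and KYAT1 (1.08) the highest.

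Among the tested genes whose levels followed GPT2 most closely over the 6 libraries, by Pearson's r on log2(TPM + 1), were ALDH1L2 (r = 0.997) and HDAC7 (r = 0.994). ALDH1L2, a mitochondrial enzyme of folate metabolism, rose from 4.87 to 8.61 TPM (adjusted p = 0.0178), and HDAC7 did not pass the test (log2 fold change 0.18, adjusted p = 0.124). For ASS1 they were ZC3HAV1, PLBD2 and TCIRG1, each with r = 0.998, which fell with log2 fold changes of -0.50, -0.37 and -0.61 (adjusted p = 0.00771, 0.0125 and 0.00482). With 6 libraries in 2 groups such values are common: r exceeded 0.95 for 389 tested genes with GPT2 and for 482 with ASS1.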

How the data were processed

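RNA-seq of 6 libraries of 67R cells was analysed, 3 siNC and 3 siBCAT1, grouped by their labels. The authors deposited 1 TPM value per gene and library, with a gene length, after quality control with fastp, mapping with HISAT2 and assembly with StringTie on GRCh38 (submitters' processing notes, which name no versions). The unit was read from the values. Library pairs differed in 98.6 to 99.0% of tested genes, so none was a copy. TPM keeps no depth, so counting errors cannot be given.

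The test ran on log2(TPM + 1) over the 14286 of 60664 genes that averaged 1 TPM or more, with limma 3.58.1 (trend) in R 4.3.3. It was two-sided, p-values were adjusted by the Benjamini-Hochberg method, and genes under 0.05 were called. Percent changes and ratios are of mean TPM. The script was tested on simulated data. Ratios and sums were compared by exact permutation in Python 3.11.15, with scipy 1.17.1 for the adjustment over pairs. Positions are from GENCODE 29 on GRCh38, promoter sequences from RefSeq (GRCh38.p14), and figures were drawn with matplotlib 3.10.9.

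The members and lists were chosen with earlier results of these data known. Named genes were the members, BCAT1, the 2 largest rises and 2 largest falls among called genes of each list, the members' pseudogenes, and the 3 genes most correlated with GPT2 and with ASS1, the called members with the largest rise and fall. GLUD2, ASL, BCAT2, ALDH4A1, ALDH18A1, CEBPG, TRIB3 and ATF4 were named after their values were seen. Some genes under this rule are not reported here. Motifs and the transaminase sum were added after the data were seen. The alternatives were no filter, a filter at a mean of 5 TPM, the replicate block, a pseudocount of 0.1, median-ratio scaling, quantile normalization, each library left out in turn and, chosen after the data were seen, a loess fit on GC content and length (span 0.5, GC content known for 99% of tested genes).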

Additional observations from a re-analysis of the deposited data

How the results depend on the processing

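GPT2 and ASS1 kept their direction and their call under all 13 alternatives, with log2 fold changes of 0.64 to 0.87 and -0.59 to -0.42. ASNS kept its direction (0.38 to 0.55) and lost its call without siNC replicate 3, siBCAT1 replicate 1 or siBCAT1 replicate 3. The members that were not called lie close to 0, and the sign of some turned: GLUD1 was at -0.001 with quantile normalization, and GOT1 at -0.04 with median-ratio scaling, -0.082 with quantile normalization and -0.07 with the GC content and length correction. With each library left out in turn, GOT1 ran from -0.028 to 0.036, GOT2 from -0.044 to 0.053, the GOT1 to GOT2 ratio difference from -0.059 to 0.059 and the GLUL to GLUD1 ratio difference from -0.067 to 0.038. None of these values was called, and the cause was not tested. The count of members called was 2 or 3, and that of the 50 list genes 15 to 24. Among the list genes, CAD, KYAT1, ALDH18A1 and ATF4 kept their direction and were called under 5 of 13, 6 of 12, 3 of 13 and 4 of 13 alternatives, with a highest adjusted p (limma) of 0.162, 0.102, 0.115 and 0.136. Over all genes the count was 3865 in the main test and 2567 with no filter, which tests more genes. With each library left out in turn, it was 3706 without siNC replicate 2 and 2318 to 2503 without any other library. Across tested genes, siNC replicate 2 correlated with the siBCAT1 libraries at 0.953 to 0.958, and siNC replicates 1 and 3 at 0.943 to 0.948. The part of this library in the calls was not tested.

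Whether the replicate numbers mark a pairing was not tested. The deviations of same-numbered libraries from their group means correlated at 0.084, 0.102 and 0.124. Those of differently numbered libraries correlated at -0.081 to -0.013, so every library correlated best with its own number. With the replicate number as a block, 4568 genes, 3 members and 24 list genes were called, the log2 fold changes of BCAT1, GPT2, ASNS and ASS1 were -2.12, 0.74, 0.47 and -0.49, and the block changed no member's call.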
